A study of Sus scrofa with 6 samples.

Results

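The proteasome and the enzymes that hand ubiquitin to its substrates were followed in IPEC-1 cells, a non-transformed epithelial line from the small intestine of newborn piglets. The members are the genes whose symbol in the platform annotation begins with PSMA, PSMB, PSMC or PSMD, without the immunoproteasome genes PSMB8, PSMB9 and PSMB10, or with UBE2, without UBE2C. They come to 54 of the 6765 genes with 1 symbol on the array, 31 of them proteasome genes and 23 ubiquitin-conjugating enzymes (E2). Where a gene had several probe sets, the brightest on average stood for it.

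The study grew IPEC-1 on membrane inserts either as air-liquid interface (ALI) culture, with medium below the membrane and a thin film of liquid over the cells, or as submerged culture (SMC), with a column of medium over them. It asked whether the change of cell shape in ALI goes with a change of metabolism. RNA of 3 ALI and 3 SMC cultures was measured on 6 GeneChip Porcine Genome Arrays, 1 array of each culture type at each of the passages labelled P109, P111 and P113. Both groups come from 1 cell line, and no genetic modification is given, so that replicates 1, 2 and 3 are passages and not animals. In the main fit, whose only factor was the culture type, the p-values measure the spread between passages of that line. Where the passage enters the fit, the spread left is how the difference between cultures varies between passages.

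The proteasome is the protease that degrades most short-lived and misfolded proteins of the cell. Its 20S core is a barrel of alpha and beta subunits with the proteolytic sites on the inner face of certain beta subunits, and its 19S cap binds ubiquitinated proteins, removes the ubiquitin and unfolds them with a ring of ATPases. Ubiquitin is activated by an E1 enzyme, passed to an E2 and joined to the substrate with the help of a ligase (E3), so that the E2 takes part in deciding which kind of chain is built. In the intestinal epithelium, as elsewhere, this pathway also removes the hypoxia-inducible factor when oxygen is present.

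All values are log2 signals, and differences are ALI minus SMC on that scale. Array medians lay between 6.33 and 6.38, the lower quartile of an array between 4.51 and 4.61 and the upper quartile between 8.27 and 8.36. Of 8 measured epithelial markers, 1 (TJP1) was below the lower quartile, while CDH1 (12.72 to 12.97), EPCAM (13.30 to 13.44) and KRT8 (13.44 to 13.75) were among the high signals. The free-text label names liver and the source label jejunum. Of 9 hepatocyte markers, 4 (APOB, FGB, FGG and TAT) were below the lower quartile. The rest were not, among them ALB, which lay between 8.03 and 8.87. Signals were also summed over each list on the linear scale and the sum given as log2, so that the brightest markers weigh most. The epithelial markers reached 15.46 to 15.51 in ALI and 15.39 to 15.58 in SMC, and the hepatocyte markers 9.77 to 10.33 and 9.90 to 10.93. In cultured cells measured in bulk, less RNA per cell and fewer cells that make it cannot be told apart.

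The 54 members differed little between ALI and SMC. In limma, with p-values adjusted over all probe sets, 0 of the 54 were called at an adjusted p under 0.05, where 2.53% of all genes were called (1.02% higher and 1.51% lower in ALI). With the passage as a block limma also called 0 members against 6.0% of all genes. At an unadjusted p under 0.05, limma found 1 member, UBE2T, against 16.0% of all genes, with the block it found UBE2T again against 21.2%, and the methods' t-test, run here with equal variances, found 4 against 14.2%, all of them proteasome genes (PSMA6, PSMC6, PSMD6 and PSMD10). The lowest adjusted p of a member in limma was 0.200, for UBE2T.

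The log2 fold changes were positive for 28 members and negative for 26. Their median was 0.01, the same as over all genes, and they ran from -0.52 to 0.23. The difference was smaller than 0.25 in 52 members (96.3%), against 76.3% of all genes. The 95% interval of limma lay within 1.5-fold in both directions for 51 members (94.4%), against 76.1% of all genes and 72.7% of the genes with a mean signal above 6. The exceptions were PSMD4, UBE2T and UBE2E3. For the brightest probe sets of the other members the data therefore bound the difference at less than 1.5-fold, member by member at this level of the interval. They do not show it to be 0. For UBE2QL1, below the lower quartile on all 6 arrays, the bound is on a signal not shown to be above background. The interval of a further probe set passed 1.5-fold in PSMC2 (0.06 to 0.74), UBE2H (-0.19 to 0.60) and UBE2V1 (-0.45 to 0.61).

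**Figure D1:**
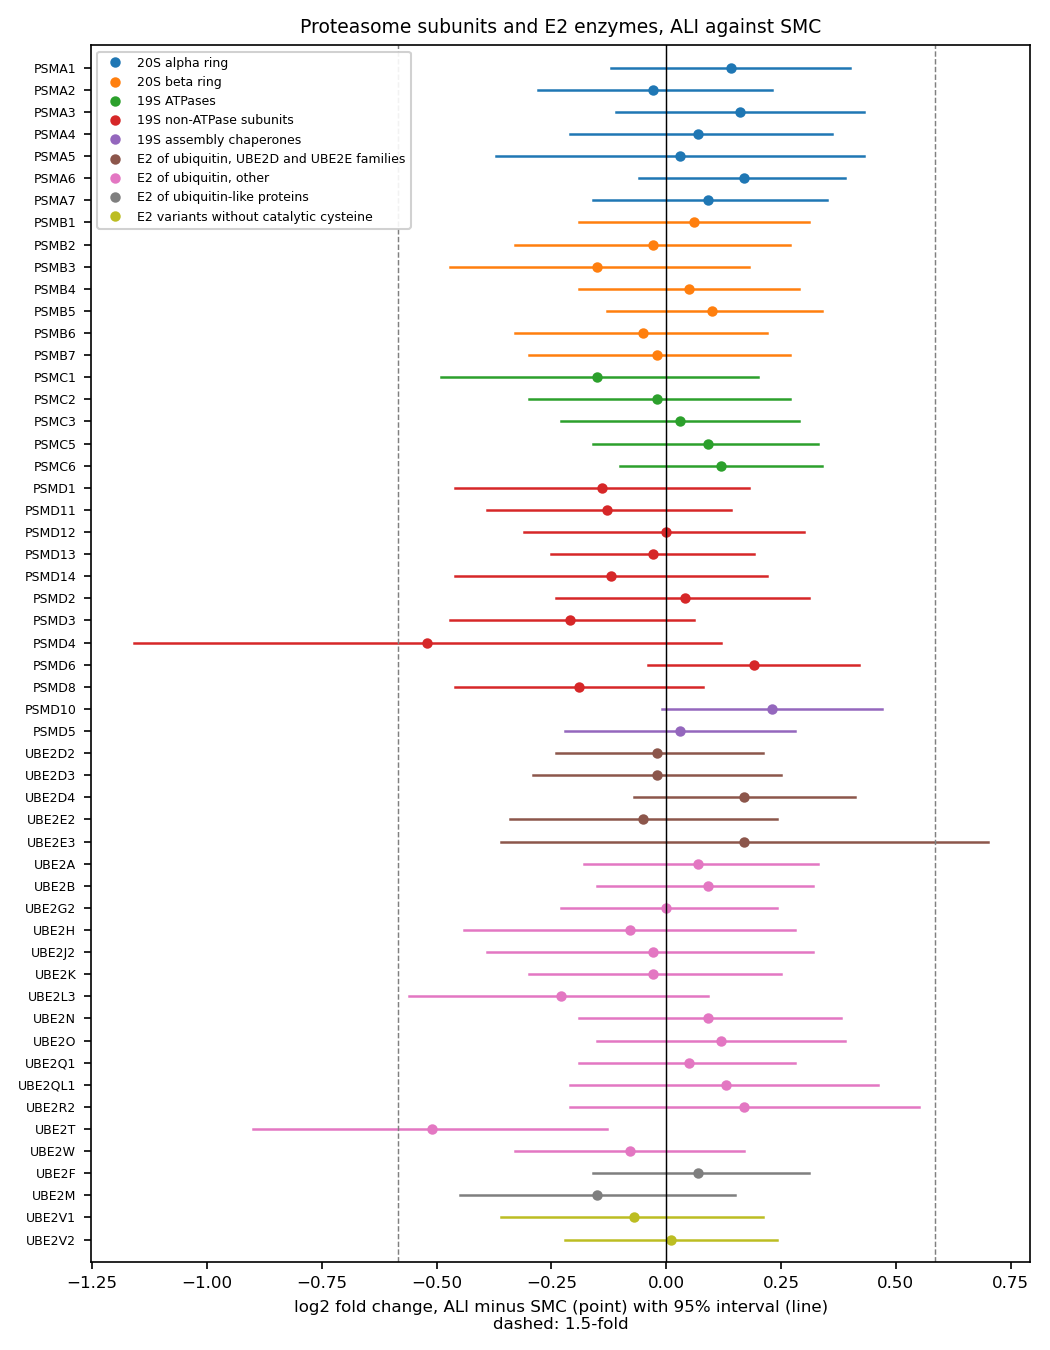
Log2 fold change of the 54 members, ALI minus SMC (x axis), with genes in rows grouped by role. Points are limma estimates from 3 ALI and 3 SMC arrays, lines their 95% intervals, and dashed lines mark 1.5-fold in each direction. The intervals of all members except PSMD4, UBE2T and UBE2E3 stay between the dashed lines.

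The core was measured with 7 alpha and 7 beta subunits. Alpha subunits form the outer rings that gate entry to the barrel. Their median difference was 0.09 (range -0.03 to 0.17), and 6 of 7 were positive, though none was called by limma. PSMA6 had 12.24, 12.27 and 12.35 in ALI replicates 1 to 3 and 12.10, 12.19 and 12.06 in SMC. All 3 ALI values were above all SMC values, by a difference of means of 0.17 (95% interval -0.06 to 0.39, adjusted p = 0.482 in limma). PSMA7, the alpha subunit with the highest signal, had a difference of 0.09, with 12.99 at passage P113 in ALI above the other arrays (12.68 to 12.75).

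The beta subunits had a median difference of -0.02 (range -0.15 to 0.10), with 3 of 7 positive. The 3 subunits that carry the proteolytic sites of the constitutive core, PSMB5 (chymotrypsin-like), PSMB6 (caspase-like) and PSMB7 (trypsin-like), differed by 0.10 (95% interval -0.13 to 0.34), -0.05 (-0.33 to 0.22) and -0.02 (-0.30 to 0.27). PSMB5 had 11.62, 11.57 and 11.72 in ALI and 11.55, 11.60 and 11.46 in SMC. PSMB6 had 11.05, 11.13 and 10.95 in ALI and 11.20, 11.19 and 10.89 in SMC. In PSMB5, PSMB6 and PSMB7 the groups overlapped. The largest beta difference was that of PSMB3, a subunit without a proteolytic site, at -0.15 (adjusted p = 0.708 in limma), and PSMB4, the brightest beta probe set, differed by 0.05 (adjusted p = 0.882).

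The 19S ATPases unfold the substrate and push it into the core. The 5 measured ones had a median difference of 0.03 (range -0.15 to 0.12). PSMC2 enters with -0.02 from its brightest probe set. Its other probe sets gave 0.40 and 0.24 (adjusted p = 0.269 and 0.359 in limma), each with ALI above SMC on every array. PSMC6 had 12.19, 12.13 and 12.13 in ALI and 11.98, 12.03 and 12.08 in SMC, so that the groups did not overlap at a difference of 0.12 (95% interval -0.10 to 0.34, adjusted p = 0.629 in limma). PSMC1 was at the other end, at -0.15 (adjusted p = 0.719), with overlapping groups.

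Among the 10 other 19S subunits, which form the base scaffold and the lid, 8 had a negative and 2 a positive difference, with a median of -0.12 (range -0.52 to 0.19). No member of this list was called by limma. PSMD14, the deubiquitinase of the lid, differed by -0.12 (95% interval -0.46 to 0.22), PSMD3 by -0.21 (-0.47 to 0.06) and PSMD8 by -0.19 (-0.46 to 0.08). PSMD6, a lid subunit, went the other way. It had 11.82, 11.79 and 11.78 in ALI and 11.58, 11.72 and 11.53 in SMC, a difference of 0.19 without overlap of the groups (95% interval -0.04 to 0.42, adjusted p = 0.436).

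PSMD4, a ubiquitin receptor of the cap, had the most negative difference of all members, and 1 array set it. Its signals were 10.87, 9.76 and 10.88 in ALI and 10.96, 11.18 and 10.94 in SMC. The ALI array of passage P111 was more than 1 log2 unit below every other array. The difference of means was -0.52 (SE 0.28, 95% interval -1.16 to 0.12, adjusted p = 0.445 in limma), made of -0.09, -1.42 and -0.05 at passages P109, P111 and P113. Without ALI replicate 2 it was -0.15 (adjusted p = 0.694). PSMD4 has 1 probe set with a symbol on this array, so that no second reading of that array was made.

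The 2 measured chaperones of 19S assembly were PSMD10 (gankyrin) and PSMD5, which help to assemble the base and are not part of the finished proteasome. PSMD10 had the highest positive difference of the 54 members. It had 9.29, 9.26 and 9.45 in ALI and 9.01, 9.10 and 9.19 in SMC. Every ALI array was above every SMC array, and the differences within passages P109, P111 and P113 were 0.28, 0.16 and 0.26. The difference of means was 0.23 (SE 0.11, 95% interval -0.01 to 0.47, adjusted p = 0.376 in limma, 0.266 with the passage as a block). PSMD5 differed by 0.03 (-0.22 to 0.28).

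Of the E2 enzymes, 5 belong to the UBE2D and UBE2E families, which work with many ligases. Their median difference was -0.02 (range -0.05 to 0.17). UBE2D2, the brightest, differed by -0.02 (adjusted p = 0.962 in limma). UBE2E3 varied more than its relatives, with 11.63, 11.06 and 11.97 in ALI and 11.11, 11.38 and 11.65 in SMC. The groups overlapped, the differences within passages were 0.52, -0.32 and 0.31, and their mean of 0.17 (SE 0.23, 95% interval -0.36 to 0.70) moved between -0.04 and 0.42 as single arrays were left out. UBE2D4 was higher on each ALI array (6.19, 6.38 and 6.24) than on any SMC array (6.14, 6.16 and 6.02), by 0.17 (adjusted p = 0.522 in limma), but its 2 other probe sets gave 0.07 and -0.20.

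UBE2T, the E2 of the Fanconi anemia pathway of DNA crosslink repair, was the member with the lowest p. Its signals were 7.95, 7.73 and 7.95 in ALI and 8.77, 8.23 and 8.18 in SMC. The ALI values were all below the SMC values, and SMC replicate 1 was the highest array. The difference was -0.51 (SE 0.17, 95% interval -0.90 to -0.13), which is 70.0% of the SMC signal. The adjusted p was 0.200 in limma and 0.0682 with the passage as a block, so the difference was not called. The differences within passages P109, P111 and P113 were -0.81, -0.50 and -0.23.

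A second probe set of UBE2T had 7.44, 7.47 and 7.32 in ALI and 7.88, 7.66 and 7.60 in SMC. It also separated the groups, with a smaller difference of -0.30 (adjusted p = 0.271 in limma). Without single arrays the first probe set gave -0.62 to -0.33, with adjusted p-values of 0.168 to 0.380. UBE2C, a mitotic E2 that the rule leaves out, had a difference of 0.22 (adjusted p = 0.553), with the opposite sign to UBE2T. Its mean signal was low at 5.16 and its groups overlapped. The second probe set of UBE2C, at 0.15, was below the lower quartile on all 6 arrays.

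The other E2 enzymes of ubiquitin had differences between -0.23 and 0.17 when UBE2T is set aside. UBE2L3, which works with ligases such as parkin, had the lowest at -0.23 (95% interval -0.56 to 0.09, adjusted p = 0.508 in limma), while its second probe set gave 0.02. UBE2R2, an E2 of cullin-RING ligases, had the highest at 0.17 (-0.21 to 0.55). UBE2N, which builds chains that signal rather than target for degradation, differed by 0.09 (adjusted p = 0.784). Its partners UBE2V1 and UBE2V2, E2 variants without a catalytic cysteine, differed by -0.07 (-0.36 to 0.21) and 0.01 (-0.22 to 0.24). The E2 enzymes of the ubiquitin-like protein NEDD8, which activates cullin ligases, had opposite signs, with -0.15 (-0.45 to 0.15) for UBE2M and 0.07 (-0.16 to 0.31) for UBE2F. UBE2QL1 was below the lower quartile on all 6 arrays and is not shown to be above background.

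**Figure D2:**
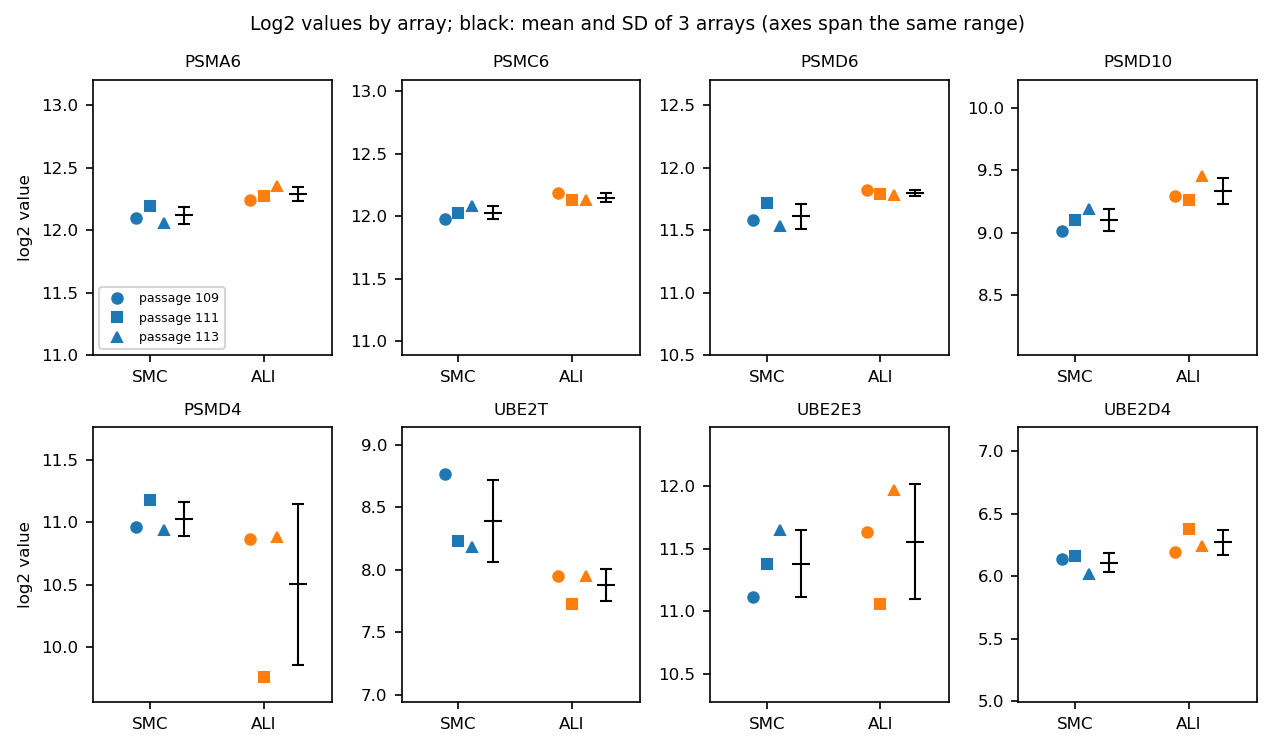
Log2 signal (y axis) of 8 members by culture type, 1 symbol shape per passage, with the mean and SD of the 3 arrays of a group in black. The y axes span the same range, and the low ALI point of PSMD4 at 9.76 and the high SMC point of UBE2T at 8.77 lie away from the rest of their groups.

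In 7 of the 54 members (13.0%), by the brightest probe set, the ALI and SMC arrays did not overlap, against 21.9% of all genes. ALI was above SMC in PSMA6, PSMC6, PSMD6, PSMD10 and UBE2D4 (9.26% of members, 11.0% of all genes). ALI was below SMC in PSMD4 and UBE2T (3.70% of members, 10.9% of all genes). The sign of the difference was the same at all 3 passages in 16 members (29.6%), against 44.2% of all genes. The spread between arrays of 1 group was small, with a median SD of 0.10 in ALI and 0.13 in SMC over the proteasome genes and of 0.12 and 0.11 over the E2 genes. Over all genes it was 0.14 and 0.13.

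The proteasome genes deviated in the same direction on certain arrays. This pattern was read from these 6 arrays and carries no test. On the SMC array of passage P113, 30 of 31 proteasome genes (96.8%) were below their own mean over the 6 arrays, PSMD4 being the exception. Of all genes 54.1% were below, as were 51.3% of the 2668 genes above the upper quartile on all arrays, and 13 of 23 E2 genes (56.5%).

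On the SMC array of passage P111, 27 of 31 (87.1%) were above their mean, all but PSMA6, PSMA7, PSMC6 and PSMD10. There the shares were 52.0% of all genes, 60.6% of the genes with high signal and 47.8% of the E2 genes. The deviation averaged 0.12 on the SMC array of passage P111 and -0.12 on that of passage P113, and between -0.01 and 0.02 on the other 4. On the ALI array of passage P111, 23 of 31 (74.2%) were above their mean, with a median deviation of 0.07 and PSMD4 far below, against 44.7% of all genes and 38.1% of the genes with high signal. After quantile normalization of the deposited values, an alternative chosen for this count after the data were seen, 25 of 31 were above on the SMC array and 26 of 31 on the ALI array of passage P111 (medians 0.09 and 0.10), and 29 of 31 below on the SMC array of passage P113.

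**Figure D3:**
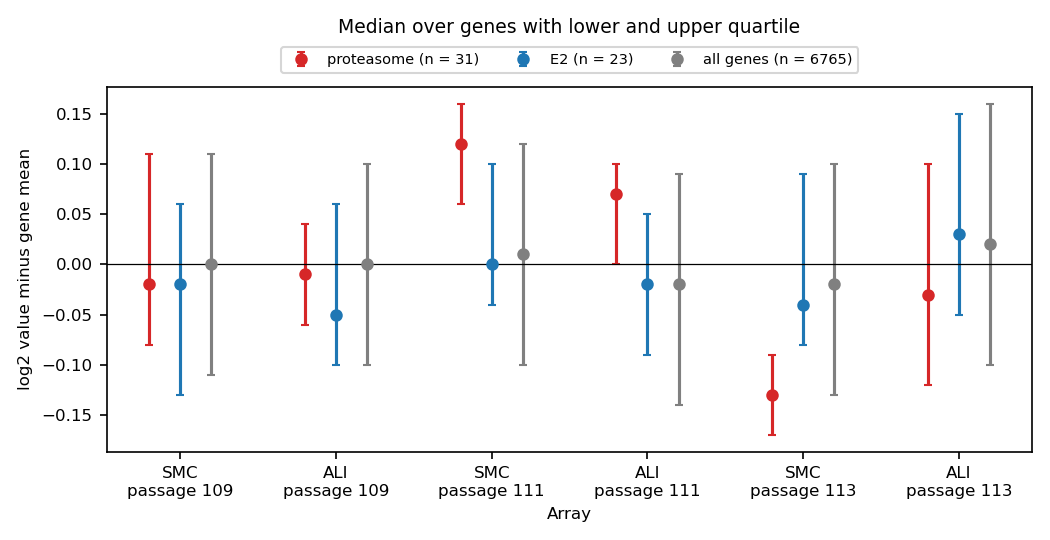
Log2 signal minus the mean of the gene over 6 arrays (y axis), by array (x axis), for 31 proteasome genes, 23 E2 genes and all 6765 genes. Points are medians over genes and bars run from the lower to the upper quartile of the genes, not an error. The proteasome median is 0.12 on the SMC array of passage P111 and -0.13 on that of passage P113, while the E2 median stays between -0.05 and 0.03.

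Within SMC, passage P111 was the highest array for 26 of 31 proteasome genes (83.9%), 6 of 23 E2 genes (26.1%) and 32.8% of all genes. Within ALI it was the highest for 19 proteasome genes (61.3%), 7 E2 genes (30.4%) and 27.5% of all genes. Passage P113 was the lowest in both cultures for 14 proteasome genes (45.2%), 2 E2 genes (8.70%) and 17.8% of all genes. Each passage is 1 pair of arrays, so that passage, culture day and array cannot be told apart.

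The F-test of limma for passage, with culture type in the fit, called 0 members against 0.0296% of all genes, also after quantile normalization. At an unadjusted p under 0.05 it found 4 members against 15.1% of all genes. These were PSMA5, PSMC1, UBE2R2 and UBE2E3, and the lowest adjusted p was 0.222, for PSMA5. PSMA5, an alpha subunit, had 11.01, 11.23 and 10.71 in ALI and 11.10, 11.11 and 10.66 in SMC at passages P109, P111 and P113. Both passage P113 arrays were the lowest, by 0.37 below passage P109 on average, and the cultures differed by 0.03. UBE2R2 and UBE2E3 went the other way, with passage P113 above passage P109 by 0.45 and 0.44.

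**Figure D4:**
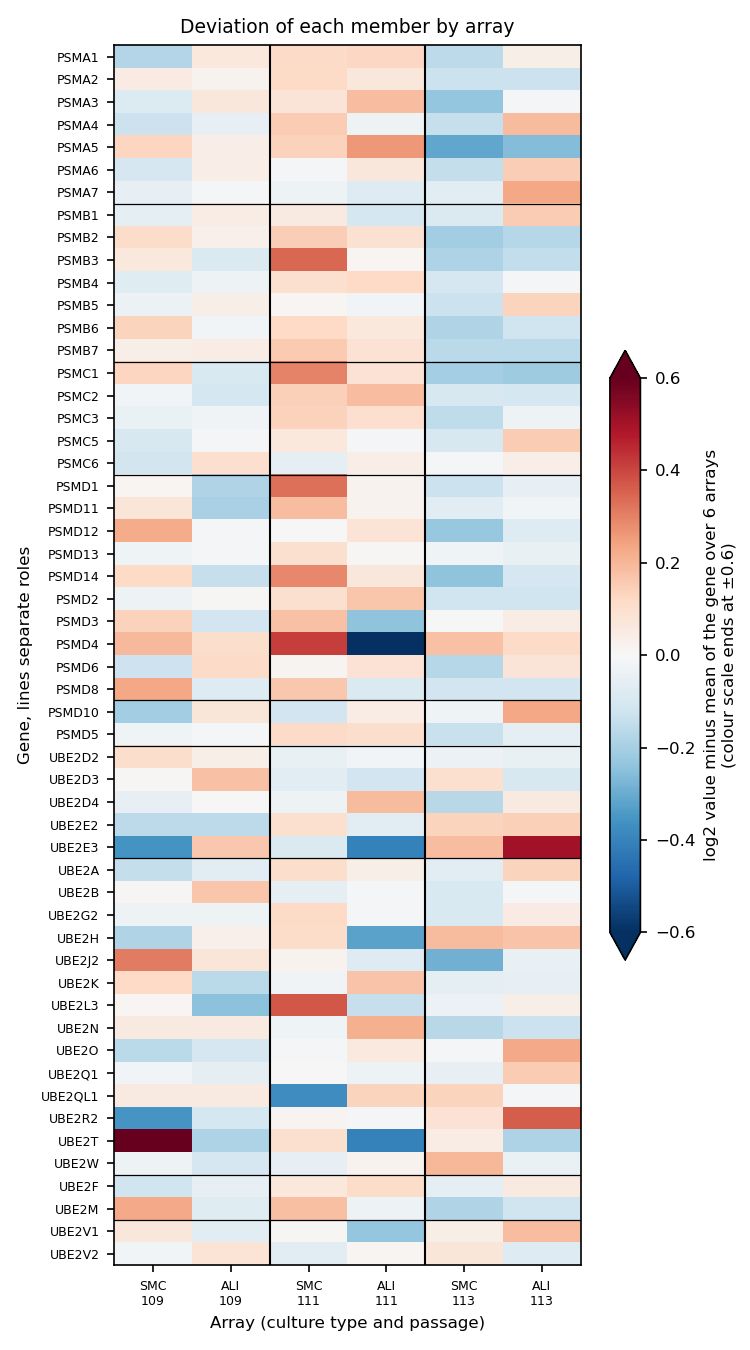
Log2 signal minus the mean of each gene over 6 arrays (colour), for the 54 members (rows, grouped by role) on each array (columns, ordered by passage with SMC left of ALI). Red is above and blue below the mean, and the PSM rows are mostly red at SMC passage P111 and blue at SMC passage P113, which the UBE2 rows are not.

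The sign of the proteasome median depended on single arrays. The median difference of the 31 genes was 0.03 over all arrays, and 0.02, -0.05 and 0.08 at passages P109, P111 and P113, where all genes had 0.00, -0.03 and 0.05. It was 0.09 without SMC replicate 2, -0.05 without SMC replicate 3 and -0.04 without ALI replicate 2. The E2 median was 0.00, and -0.02 to 0.03 without single arrays. All 54 members were followed individually as well, and 28 kept their sign without each single array.

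All 31 proteasome genes were above the upper quartile of every array, as were 14 of 23 E2 genes and 39.4% of all genes. Signals also depend on the probes, so that no order of transcript amounts among the members follows. For 14 members the array has 34 probe sets, and for 8 of them the probe sets gave differences of both signs. The widest spans were 0.44 for PSMD11, a lid subunit (-0.13, -0.20 and 0.24), and 0.42 for PSMC2 (-0.02, 0.40 and 0.24). Of the member probe sets, 0 were called by limma, with or without the block, against 1.90% and 5.32% of all probe sets. At an unadjusted p under 0.05 limma found 3 of the 74 member probe sets, against 14.3% of all probe sets, namely both of UBE2T and 1 of PSMC2 that was not the brightest (0.40, adjusted p = 0.269). The chosen probe sets of UBE2E3 and UBE2D3 (suffix s_at) are of a type that may match several transcripts. Those of PSMB3, PSMD12, UBE2A, UBE2L3, UBE2M and UBE2Q1 (suffix a_at) may match several transcripts of their gene.

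**Figure D5:**
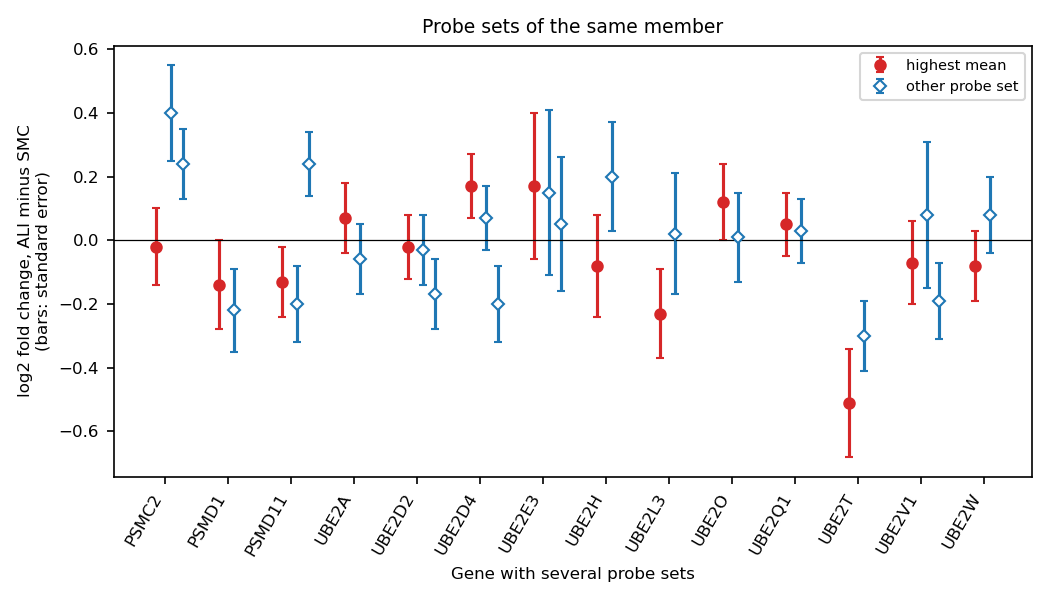
Log2 fold change, ALI minus SMC (y axis), of every probe set of the 14 members with several. Filled points are the probe set with the highest mean, open points the others, and bars the standard error of limma. The probe sets of PSMC2 and PSMD11 lie on both sides of 0, while both of UBE2T lie below it.

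PSMB8 and PSMB10, interferon-inducible subunits that replace constitutive ones in the immunoproteasome, are outside the rule, and their differences lay outside the range of the constitutive core subunits (-0.15 to 0.17). The further inducible subunit PSMB9 was not analysed here. PSMB10 had 8.54, 8.41 and 8.64 in ALI and 9.15, 9.01 and 8.85 in SMC. PSMB8 had 6.40, 6.37 and 6.51 in ALI and 6.92, 6.72 and 6.66 in SMC. Both were lower on every ALI array, by -0.48 (95% interval -0.75 to -0.20) and -0.34 (-0.59 to -0.08). Neither was called, with adjusted p-values in limma of 0.101 and 0.203, and of 0.0655 and 0.150 with the passage as a block. PSME1, a subunit of the activator that is induced with them, had 11.41, 11.31 and 11.40 in ALI and 11.64, 11.66 and 11.63 in SMC, a difference of -0.27 (adjusted p = 0.240 in limma). PSME2, its partner in the activator, had 10.80, 10.85 and 10.66 in ALI and 11.12, 10.88 and 10.73 in SMC, with overlapping groups and a difference of -0.14 (adjusted p = 0.679).

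Other genes of the pathway were read from lists written from general knowledge, with 117 genes measured. Limma called 3 of them, 2 higher and 1 lower in ALI, against 2.53% of all genes, and 5 with the passage as a block, against 6.0%. For the lists without a call, here and below, counts in brackets are at an unadjusted p under 0.05. Of all genes 16.0% passed this in limma and 14.2% by the test of the methods. Of 8 further genes, proteasome activators, an inhibitor, core chaperones and the small lid subunit SEM1 (0.10), limma called 0 (1 at an unadjusted p under 0.05, and 1 by the test of the methods), with a median difference of -0.14 and PSMG1, a chaperone of core assembly, farthest from 0 at -0.28 (adjusted p = 0.411). Of 4 regulators of the proteasome limma called 0 (1 unadjusted, 2 by the test of the methods), with ZFAND5, a proteasome-binding zinc finger protein, at 0.31 (adjusted p = 0.209), or 0.10 (adjusted p = 0.692) as the mean of its 3 probe sets.

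Of 13 genes of ubiquitin and ubiquitin-like proteins limma called 0 (0 unadjusted, 3 by the test of the methods). Their median was 0.09, UBB, which encodes polyubiquitin, differed by 0.03 and NEDD8 by 0.24 (adjusted p = 0.424). Of 6 E1 genes limma called 0 (1 unadjusted, 1 by the test of the methods), and 1 with the passage as a block. This was ATG7, the E1 of the autophagy conjugation systems, with -0.57 (SE 0.13, adjusted p = 0.0882, 0.0229 with the block). Its signals were 6.97, 7.14 and 7.41 in ALI and 7.68, 7.68 and 7.86 in SMC, without overlap.

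Of 20 genes of cullin-RING ligases and the COP9 signalosome limma called 0 (1 unadjusted, 1 by the test of the methods), with a median of -0.04. ELOB, an adaptor of the ligase that recognises the hypoxia-inducible factor, was farthest from 0 at 0.32 (adjusted p = 0.202). CDC34, the cullin E2 that does not carry a UBE2 symbol in the annotation, differed by -0.13 (adjusted p = 0.625). Of 23 other ligases 1 rose, MYLIP, by 0.96 (adjusted p = 0.0311 in limma, 0.00269 with the passage as a block). Of 11 genes of the p97 segregase and of ubiquitin receptors limma called 0 (1 unadjusted, 1 by the test of the methods), with DERL1 at -0.23 (adjusted p = 0.343).

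Of 32 deubiquitinases 1 rose and 1 fell. USP28 had 5.52, 5.87 and 6.17 in ALI and 4.68, 4.53 and 5.12 in SMC, a rise of 1.08 (SE 0.20, 2.11-fold, adjusted p = 0.0398 in limma). USP2 had 5.84, 5.52 and 5.87 in ALI and 6.46, 6.50 and 6.65 in SMC, a fall to 57.6% (log2 difference -0.80, SE 0.13, adjusted p = 0.0219). In the block fit of limma the adjusted p was 0.00306 for USP28 and 0.00732 for USP2. With the passage as a block USP18, an interferon-induced protease of the ubiquitin-like protein ISG15, was called as well, at -0.53 (adjusted p = 0.0241, 0.132 without the block). USP28 and MYLIP were called in 1 of the 6 fits that leave out an array, the one without SMC replicate 3, and USP2 in 2, those without ALI replicate 2 or ALI replicate 3. Without another array their adjusted p-values in limma, run with no block, were 0.0548 to 0.180, and after quantile normalization that of USP28 was 0.0543.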

How the data were processed

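The authors hybridized biotin-labelled cRNA to GeneChip Porcine Genome Arrays, processed the arrays with the Affymetrix software GCOS (version 1.1.1 in the submitters' processing notes, another version in the methods), checked them with arrayQualityMetrics and, per the methods, normalized by GC-RMA. The authors deposited log2 values of 24123 probe sets on every array, in a table that names no normalization. It was used without further scaling and without detection calls. Arrays have no read depth, and their number limits the precision. With 3 arrays against 3, an exact test of 1 gene cannot go below p = 0.1.

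Without the 124 control probe sets, 23999 entered a linear model in limma (version 3.58.1 under R 4.3.3; lmFit, then eBayes) whose only factor was the culture type. A gene was called at a Benjamini-Hochberg adjusted p under 0.05 over all probe sets. The fit of ALI against SMC was also run on simulated data with independent arrays and no shared passage effect. That run cannot show how the pairing bears on the fit, and nothing is concluded from it. Symbols came from the platform annotation, and a probe set with several symbols or none was not named. Members that the rule would take but that had no probe set with 1 symbol were not analysed here.

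By the labels, 1 ALI and 1 SMC array share each passage. Deviations from the group means correlated at 0.34, 0.14 and 0.451 within passages P109, P111 and P113, and at -0.424 to 0.219 between passages. The passage is shared by label and each value within a passage exceeds 0.1, though the highest between passages (0.219) exceeds that of passage P111 (0.14). The main fit did not use this pairing. A fit with the passage as a block was run as an alternative. Its counts of calls, and its adjusted p-values for some genes, are given beside those of the main fit. Other alternatives were quantile normalization, minimum mean signals of 4 and 6, an intensity trend, the mean over probe sets, the t-test of the methods (whose form they do not state, run with equal variances), a fold of at least 1.5 and leaving out each array.

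The members and gene lists were chosen with earlier results of these data known, and the lists come from general knowledge. Named are the 5 highest and 5 lowest members, in each role the member with the highest signal and that farthest from 0, in each pathway list the called genes or the gene farthest from 0, and PSMB8, PSMB10 and UBE2C. Members named beyond this, such as UBE2D4, PSMA5, PSMD14, PSMB5, PSMB6 and PSMB7, and PSME1, PSME2, SEM1, USP18, UBB and CDC34, were chosen after their values were seen.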

Additional observations from a re-analysis of the deposited data

How the results depend on the processing

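Of the 54 members, limma called 0 in each alternative fit, those with the passage as a block, with quantile normalization, with a minimum mean signal of 4 or 6, with an intensity trend, with the mean over probe sets and without each single array included. The methods' test found 4 at an unadjusted p under 0.05 and 0 after Benjamini-Hochberg adjustment. The 3 calls among the 117 pathway genes became 5 with the passage as a block, 0 with the methods' test after adjustment, 17 with that test unadjusted (14.2% of all genes passed it), and 0 to 2 without single arrays, where fewer arrays enter the fit. Among the members and the pathway genes, the block changed no call other than those of ATG7 and USP18. The proteasome median was -0.05 to 0.09 without single arrays. The 19 members named by the rule kept their sign in the alternatives with all arrays. Of all 54 members, 6 with differences near 0 turned sign after quantile normalization (PSMB7, PSMC2, PSMD12, UBE2D3, UBE2J2 and UBE2K, now 0.01 to 0.04), and 3 with the mean over probe sets (PSMC2 to 0.21, UBE2H to 0.06 and UBE2W to 0.00). With 3 arrays per group, the intervals of the brightest probe sets leave room for differences of up to 1.5-fold, and more for PSMD4, UBE2T and UBE2E3. A further probe set of PSMC2, of UBE2H and of UBE2V1 also leaves room for more. Signals near the lower quartile, such as that of USP28 in SMC, may be close to background, and detection calls were not used.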

Other observations

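Of the 13 ubiquitin and ubiquitin-like genes, 11 had a positive difference, where 52.1% of all genes had one. SUMO2 differed by 0.20 (adjusted p = 0.384 in limma), and RPS27A, which encodes a ubiquitin fusion protein, by 0.10 (adjusted p = 0.680). The SUMO protease SENP6 had a difference of -0.39 (adjusted p = 0.162), and the chain-elongating ligase UBE4A of -0.44 (adjusted p = 0.128), each with ALI below SMC on every array. These genes were chosen after their values were seen, and limma called none of them.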
